A study of Mus musculus with 9 samples.

Results

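The coat genes of caveolae were examined in mouse embryoid bodies (EBs), clusters in which cultured stem cells start to differentiate. The 6 genes were listed by name and matched by symbol to the 55471 gene IDs of the count table. They are the caveolins *Cav1* and *Cav2*, the cavins *Cavin1*, *Cavin2* and *Cavin3*, and *Ehd2*. All 6 were present. Which of them lay at the detection floor was chosen by their read counts, with the floor set at 3 counts in a library, and no p-value below is support for that split. *Cavin1* made up most of the coat transcript in every group and was lower in KO, *Cav2* was higher in KO, and *Cav1* had more than 4 counts only in the 3 KO_PAPC libraries.

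Caveolae are small flask-shaped pits of the plasma membrane. Caveolin oligomers sit in the cholesterol-rich inner leaflet, cavins form a peripheral coat around them, and the ATPase EHD2 holds the neck. Outside striated muscle, both CAV1 and CAVIN1 are needed to form the pits. Caveolae are abundant in endothelium, smooth muscle, fibroblasts and adipocytes, where they buffer membrane tension and take part in the handling of fatty acids and cholesterol.

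RNA sequencing gave 9 libraries of EBs, all derived from E14 mouse embryonic stem cells and harvested after 3 days of in vitro differentiation. Of these, 3 were of wild-type EBs (WT), 3 of *Tnfaip2*-/- EBs (KO), and 3 of *Tnfaip2*-/- EBs given PA/PC at 8 μM each (KO_PAPC), where PA is palmitic acid and PC is palmitoyl-L-carnitine, the form in which PA enters mitochondria. The *Tnfaip2*-/- cells were 1 clone made with CRISPR-Cas9 and carrying an out-of-frame change, so genotype and clone cannot be told apart. KO and KO_PAPC shared this clone, and the study describes their libraries as separate pools of EBs. The study describes the untreated arm of the PA/PC comparison as given vehicle, which the labels do not mention. No WT EBs with PA/PC were analysed here. The comparisons ask what the loss of *Tnfaip2* alters and whether PA/PC brings it back.

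Library depth was even, at 27362913 to 28914312 counts. *Tnfaip2* itself held 6 to 16 counts in WT, 5 to 8 in KO and 14 to 25 in KO_PAPC, which checks no label, because a frameshift need not remove the transcript. Stem cell markers, as the cell type named in the labels calls for, summed to 2447 to 2491 CPM in WT, 4092 to 4119 in KO and, with PA/PC, 2181 to 2229, where CPM is counts scaled to the same library total. A gene is called where edgeR's quasi-likelihood test gave an adjusted p under 0.05, taken over all genes that passed its filter on low counts. Calls were common in every comparison, so the coat genes are read against that background throughout. In these bulk libraries, fewer cells of a type and less RNA per cell cannot be told apart.

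The 2 caveolin genes lie side by side on chromosome 6 of GRCm38, both on the plus strand. *Cav2* (ENSMUSG00000000058) spans 17281185 to 17289115 and *Cav1* (ENSMUSG00000007655) spans 17306335 to 17341452, with 17.22 kb between them. *Cavin1* (ENSMUSG00000004044) lies on the minus strand of chromosome 11 at 100956733 to 100970887, and *Cavin2* (ENSMUSG00000045954) on the plus strand of chromosome 1 at 51289126 to 51302960. *Cavin3* (ENSMUSG00000037060, 105480083 to 105482300) and *Ehd2* (ENSMUSG00000074364, 15946958 to 15967567) both lie on the minus strand of chromosome 7. All 6 are annotated as protein coding. *Gm15581*, on the other strand, spans the caveolin pair without sharing exon bases and held 0 counts in all 9 libraries.

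Promoter windows of 250 bases before to 50 bases after the start site were taken from RefSeq (GRCm38.p6), which had an entry for 5 of the 6 genes. The windows of the caveolin pair and of the 2 cavins with the largest differences between groups are shown, because *Cav1* and *Cav2* are neighbours with unlike profiles and *Cav2* and *Cavin2* have like ones. Each reads 5′ to 3′ on the gene's own strand, and the RefSeq start of *Cavin1* lies 270 bases from the GENCODE one. Capitals mark the letters searched for on both strands, namely the GC box GGGCGG, the CCAAT box CCAAT, the TEAD motif GGAATG, the TATA box TATAAA, the CArG box by its name, and the E-box CAGCTG.
*Cav1* (chr6:17306085-17306384, plus strand): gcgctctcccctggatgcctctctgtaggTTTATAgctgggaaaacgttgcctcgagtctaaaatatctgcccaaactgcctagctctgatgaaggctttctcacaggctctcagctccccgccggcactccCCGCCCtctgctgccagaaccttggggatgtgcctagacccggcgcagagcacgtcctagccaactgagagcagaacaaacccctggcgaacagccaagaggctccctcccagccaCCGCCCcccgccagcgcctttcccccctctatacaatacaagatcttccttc
*Cav2* (chr6:17280935-17281234, plus strand): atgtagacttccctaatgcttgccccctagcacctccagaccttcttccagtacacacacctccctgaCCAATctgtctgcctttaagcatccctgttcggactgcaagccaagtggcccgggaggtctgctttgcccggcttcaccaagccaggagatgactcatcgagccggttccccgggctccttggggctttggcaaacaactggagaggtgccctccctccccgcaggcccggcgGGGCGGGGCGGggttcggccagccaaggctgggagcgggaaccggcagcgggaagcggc
*Cavin1* (chr11:100970568-100970867, minus strand): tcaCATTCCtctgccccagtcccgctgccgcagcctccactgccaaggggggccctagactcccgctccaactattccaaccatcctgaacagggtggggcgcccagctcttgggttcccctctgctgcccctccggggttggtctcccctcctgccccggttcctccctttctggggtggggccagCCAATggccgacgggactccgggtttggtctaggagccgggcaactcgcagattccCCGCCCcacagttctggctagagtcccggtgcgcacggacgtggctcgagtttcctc
*Cavin2* (chr1:51288876-51289175, plus strand): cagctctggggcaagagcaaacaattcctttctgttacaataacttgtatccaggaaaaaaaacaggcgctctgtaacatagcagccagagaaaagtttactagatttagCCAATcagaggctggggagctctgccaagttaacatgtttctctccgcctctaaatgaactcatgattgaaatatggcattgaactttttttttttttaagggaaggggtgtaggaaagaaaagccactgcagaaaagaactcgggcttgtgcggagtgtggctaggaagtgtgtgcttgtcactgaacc

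*Cav1* held 2 GC boxes, read on the other strand as CCGCCC, at -118 and -2 from the start site, and a TATA box on the other strand at -221. *Cav2* held 2 GC boxes that overlap, at -9 and -4, and a CCAAT box at -182. *Cavin1* held a CCAAT box at -63 and, both on the other strand, a GC box at -7 and a TEAD motif at -247. The *Cavin2* window held only a CCAAT box, at -140. Its GC content was 43.3% with 4 CpG dinucleotides, against 59.3% and 13 for *Cav1*, 64.3% and 16 for *Cav2*, 66.7% and 17 for *Cavin1*, and 62% and 18 for *Ehd2*. Over all 32851 windows the medians were 52.7% and 7. The GC box occurred in 35.7% of all windows, the CCAAT box in 37.4%, the TATA box in 13.6%, the TEAD motif in 14.7%, the E-box in 16.3% and the CArG box in 1.63%, and a match describes letters, not a binding site. None of the 5 windows held a CArG box.

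Of the 6 coat genes, 3 were at or near the detection floor. *Cav1* had at most 3 counts in 5 of 9 libraries, *Cav2* in 3 of 9 and *Cavin2* in 6 of 9. *Cavin1*, *Cavin3* and *Ehd2* were above 3 counts in all 9 libraries. Whole groups were at the floor for *Cav1* in KO, with 2, 3 and 0 counts, and for *Cavin2* in WT and KO_PAPC. Just outside it, with 2 of 3 libraries at the floor, lay *Cav1* in WT, with 1, 0 and 4 counts, and *Cav2* in KO_PAPC, with 5, 3 and 3.

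**Figure D1:**
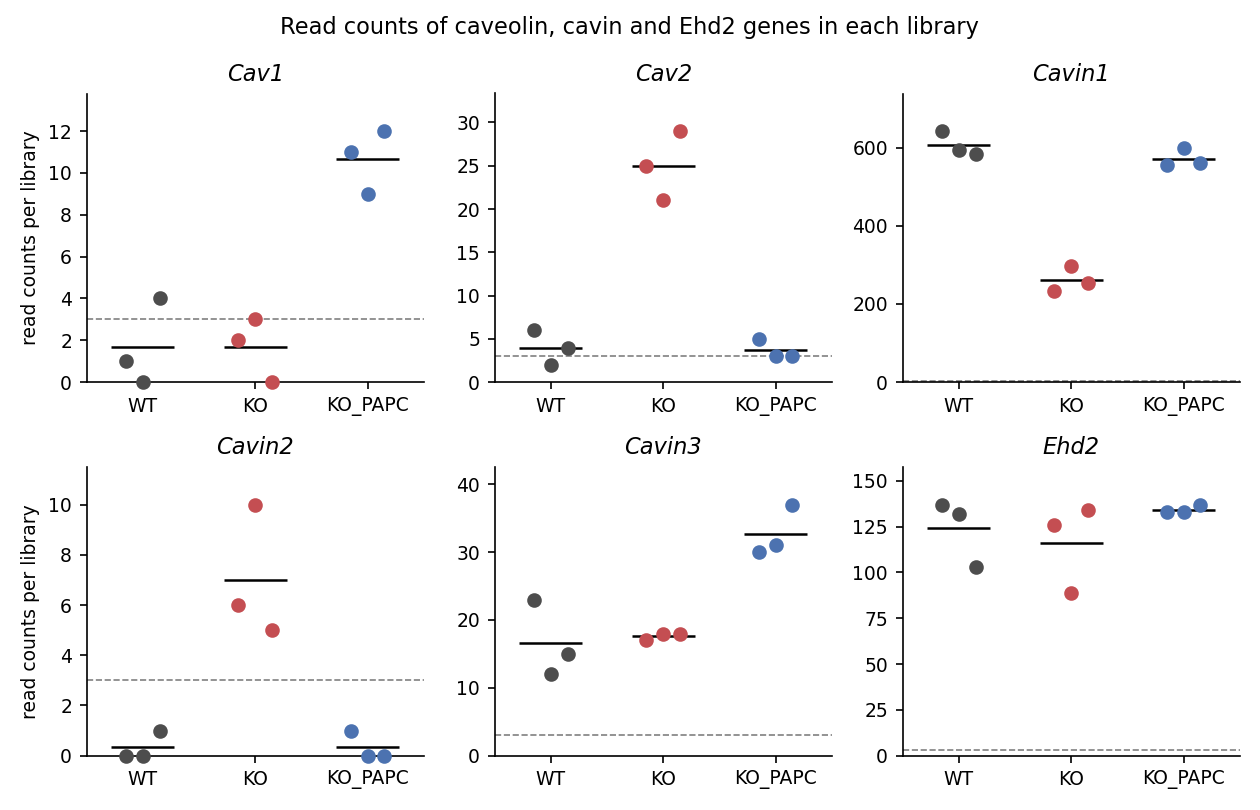
Read counts (y axis, a separate scale in each panel) of the 6 coat genes in the 3 WT, 3 KO and 3 KO_PAPC libraries; points are libraries, solid lines are group means and dashed lines mark the floor of 3 counts. KO libraries are the highest for *Cav2* (21 to 29 counts) and *Cavin2* (5 to 10) and the lowest for *Cavin1* (232 to 297), and KO_PAPC libraries are the highest for *Cav1* (9 to 12) and *Cavin3* (30 to 37).

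*Cavin1*, the cavin that every caveola requires, was the most abundant coat transcript per kilobase of exon. Its counts were 642, 594 and 583 in WT, 232, 297 and 254 in KO, and 556, 600 and 560 in KO_PAPC. All KO libraries lay below all others, and WT and KO_PAPC overlapped. WT averaged 21.7 ± 0.827 CPM, KO 9.17 ± 1.28 and KO_PAPC 20.7 ± 1.08 (SD, n = 3).

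*Cavin1* fell in KO against WT by 1.24 on the log2 scale (SE 0.0709, 95% interval -1.39 to -1.1, adjusted p = 4.055e-17 in edgeR's quasi-likelihood test). The absolute change was larger than that of 89% of the genes tested. With PA/PC it rose by 1.34 on the log2 scale over KO (SE 0.0736, adjusted p = 1.065e-18 in edgeR). KO_PAPC and WT did not pass the test (log2 difference 0.0941, 95% interval -0.0239 to 0.212, edgeR adjusted p = 0.1445), and the sign of this difference turned (-0.0705) when library totals replaced TMM size factors. Scaling by library totals moved the median of all genes by -0.17 between KO_PAPC and KO and by -0.16 between KO_PAPC and WT, and CPM values here are on library totals.

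*Cav2*, the caveolin that oligomerises with CAV1, had the opposite profile. Counts were 6, 2 and 4 in WT, 25, 21 and 29 in KO, and 5, 3 and 3 in KO_PAPC. The lowest KO library was more than any WT or KO_PAPC library, and those 2 groups overlapped. WT averaged 0.143 ± 0.0699 CPM, KO 0.876 ± 0.127 and KO_PAPC 0.132 ± 0.0412 (SD, n = 3).

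*Cav2* rose in KO by 2.58 on the log2 scale (SE 0.369, 95% interval 1.83 to 3.33, edgeR adjusted p = 1.578e-07). It fell by 2.52 on the log2 scale in KO_PAPC against KO (SE 0.377, edgeR adjusted p = 1.785e-07). It passed the count filter through its KO libraries alone, so a gene kept this way had to differ, and both p-values describe these libraries and are no further support. Between KO_PAPC and WT it was below the count filter. The ratio of summed counts there was 0.925 with a 95% interval of 0.37 to 2.29, an interval that covers counting error only, as do the count ratios below. A difference inside that interval was not detectable at this depth.

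*Cavin2*, the cavin that shapes the membrane into tubules when abundant, was read at 0, 0 and 1 counts in WT, 6, 10 and 5 in KO, and 1, 0 and 0 in KO_PAPC. All KO libraries were above the floor and all 6 others at or below it. The gene was below the count filter in all 3 comparisons. Summed counts were 20.6-fold higher in KO than WT (95% interval 3.31 to 851) and in KO_PAPC were 0.049 of those in KO (0.00119 to 0.305). With no count filter the adjusted p in edgeR was 7.778e-05 for KO versus WT and 0.0004689 for KO_PAPC versus KO, and in DESeq2 0.007043 and 0.01075. Without that filter 40.6% of all genes were called between KO and WT and 46.9% between KO_PAPC and KO. The floor split was read from the same counts, so these p-values describe these libraries and are no further support. WT and KO_PAPC were both at the floor, so no ratio is given.

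*Cav1*, the defining caveolin of non-muscle cells, showed another profile. Counts were 1, 0 and 4 in WT, 2, 3 and 0 in KO, and 11, 9 and 12 in KO_PAPC. WT and KO overlapped, and every KO_PAPC library was above both. The level in KO_PAPC was 0.385 ± 0.0517 CPM (SD, n = 3), against 0.0601 ± 0.0755 in WT and 0.059 ± 0.0544 in KO.

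*Cav1* was also below the filter in all 3 comparisons. The count ratio was 6.59 for KO_PAPC over KO (95% interval 2.55 to 21.7), 6.46 for KO_PAPC over WT (2.5 to 21.2) and 0.98 for KO over WT (0.226 to 4.26). With no count filter the adjusted p in edgeR was 3.47e-05 against KO and 3.556e-05 against WT, and in DESeq2 0.003101 and 0.00404. Without the filter 38.9% of all genes were called between KO_PAPC and WT. As for *Cavin2*, these p-values rest on the counts that set the floor split, so they describe these libraries and are no further support.

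*Cavin3*, an adaptor that binds protein kinase C delta, had 23, 12 and 15 counts in WT, 17, 18 and 18 in KO, and 30, 31 and 37 in KO_PAPC. WT and KO overlapped and KO_PAPC lay above both. Levels were 0.595 ± 0.195, 0.62 ± 0.0237 and 1.18 ± 0.131 CPM (SD, n = 3). It rose in KO_PAPC by 1.09 on the log2 scale over KO (SE 0.239, edgeR adjusted p = 9.552e-05) and by 1.14 over WT (SE 0.251, edgeR adjusted p = 0.0002701). KO versus WT gave a log2 difference of 0.0552 with a 95% interval of -0.53 to 0.64 (edgeR adjusted p = 0.8704). The value of *Cavin3* is uncertain, because 374 bp, or 22.5%, of its exons overlap *Gm45667* on the other strand, strand was not read, and reads over both genes were not counted. *Gm45667* had 0 counts in all 9 libraries.

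*Ehd2*, the neck ATPase, differed little between groups. Counts were 137, 132 and 103 in WT, 126, 89 and 134 in KO, and 133, 133 and 137 in KO_PAPC. WT and KO overlapped, and KO_PAPC overlapped WT but not KO once counts were scaled to CPM (lowest KO_PAPC 4.79, highest KO 4.63). Means were 4.44 ± 0.613, 4.07 ± 0.785 and 4.86 ± 0.0648 CPM (SD, n = 3).

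*Ehd2* rose in KO_PAPC over KO by 0.42 on the log2 scale (SE 0.119, edgeR adjusted p = 0.001817), less than the median absolute change of all genes, 0.54. Without KO replicate 2, its lowest library, the change was 0.26 (edgeR adjusted p = 0.04192), and scaled by library totals it was 0.25 and not called (edgeR adjusted p = 0.05267). Over WT it rose by 0.29 (SE 0.112, edgeR adjusted p = 0.02297), a call lost in DESeq2 (adjusted p = 0.1165), with library totals (edgeR adjusted p = 0.3088), without WT replicate 3 (0.18, edgeR adjusted p = 0.174) and without KO_PAPC replicate 3 (0.28, edgeR adjusted p = 0.05696). Adjusted p over these and the other alternatives ranged from 0.01332 to 1. KO versus WT gave -0.12 with a 95% interval of -0.38 to 0.14 (edgeR adjusted p = 0.3936).

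Counted over the comparisons, KO versus WT tested 4 coat genes and called 1 higher, *Cav2*, and 1 lower, *Cavin1*, where 36.8% of all tested genes were called higher and 37.1% lower (73.8% in all). KO_PAPC versus KO tested 4 and called 3 higher, *Cavin1*, *Cavin3* and *Ehd2*, and 1 lower, *Cav2*, against 39.6% higher and 42.2% lower (81.8% in all). KO_PAPC versus WT tested 3 and called 2 higher, *Cavin3* and *Ehd2*, against 34.2% higher and 36.4% lower (70.6% in all). CPM of the 2 groups did not overlap for 3 of the 6 genes between KO and WT, 6 between KO_PAPC and KO, and 2 between KO_PAPC and WT. Of the tested coat genes this was 2 of 4, 4 of 4 and 1 of 3, and of all tested genes 75.2%, 82.1% and 73%. Since *Cav2* passed the filter through its KO libraries alone, counts over the tested coat genes only describe them. KO libraries also enter both of the first 2 comparisons. When a change of at least 2-fold was required, *Cav2* (adjusted p = 0.0004056) and *Cavin1* (adjusted p = 0.002687) stayed called by edgeR in KO versus WT, where 9.14% of genes were, and in KO_PAPC versus KO *Cav2* (adjusted p = 0.0002865) and *Cavin1* (adjusted p = 3.577e-05), where 20.7% were. None of the 3 tested genes was called at that fold in KO_PAPC versus WT, where 8.02% of all genes were.

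**Figure D2:**
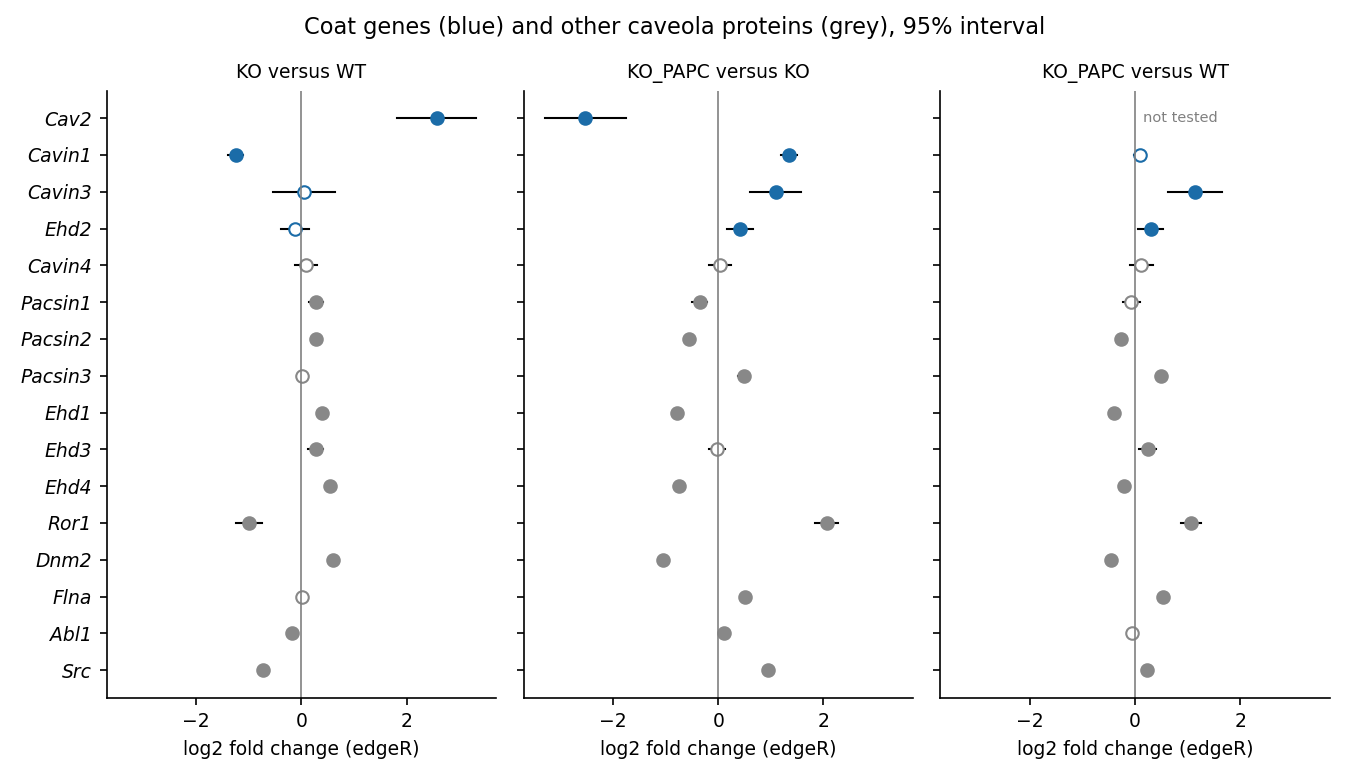
Log2 fold changes of the tested coat genes (blue) and of other caveola proteins (grey), 1 panel per comparison; bars are 95% intervals, and filled symbols were called by edgeR at an adjusted p under 0.05. *Cav2* (2.58, then -2.52) and *Cavin1* (-1.24, then 1.34) lie on opposite sides of 0 in the first 2 panels, and *Cav2* was not tested in KO_PAPC versus WT.

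Per kilobase of exon, the order of the coat genes could be compared. In WT it was *Cavin1* (6.05 CPM per kb), *Ehd2* (0.867), *Cavin3* (0.358), *Cav2* (0.0428), *Cav1* (0.0174) and *Cavin2* (0.00395). Library values of *Cav2* and *Cav1* overlapped there, as did those of *Cav1* and *Cavin2*, so the order of these 3 is not resolved. In KO the order was *Cavin1* (2.56), *Ehd2* (0.796), *Cavin3* (0.373), *Cav2* (0.263), *Cavin2* (0.0807) and *Cav1* (0.0171), and in KO_PAPC *Cavin1* (5.76), *Ehd2* (0.948), *Cavin3* (0.71), *Cav1* (0.112), *Cav2* (0.0397) and *Cavin2* (0.00393). Neighbours in these 2 orders did not overlap. *Cav2* was the higher caveolin in KO and *Cav1* in KO_PAPC.

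Even *Cavin1* was a mid-range transcript among all protein-coding genes of the table, which include genes with few or no reads. *Cavin2* in WT, with 1 count in all, was above 19.2% of them. On the scale of CPM per kb *Cavin1* was above 67.9% of these 21974 genes in WT, 57% in KO and 69.5% in KO_PAPC. *Ehd2* was above 47.4%, 46.4% and 51.2%, *Cavin3* above 41.5%, 40.7% and 49.3%, and *Cav1* above 24.4%, 22.9% and 38%. The 6 genes together summed to 7.34 ± 0.42 CPM per kb (SD, n = 3) in WT, 4.09 ± 0.25 in KO and, with PA/PC, 7.58 ± 0.269. *Cavin1* made up 82.5% of that sum in WT (80.7 to 83.6 over libraries), 62.4% in KO (59 to 68.2) and 76% in KO_PAPC (74.5 to 77.7). The 2 caveolins together reached 0.0603 CPM per kb in WT, 0.28 in KO and 0.152 in KO_PAPC, far below *Cavin1* in each group.

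**Figure D3:**
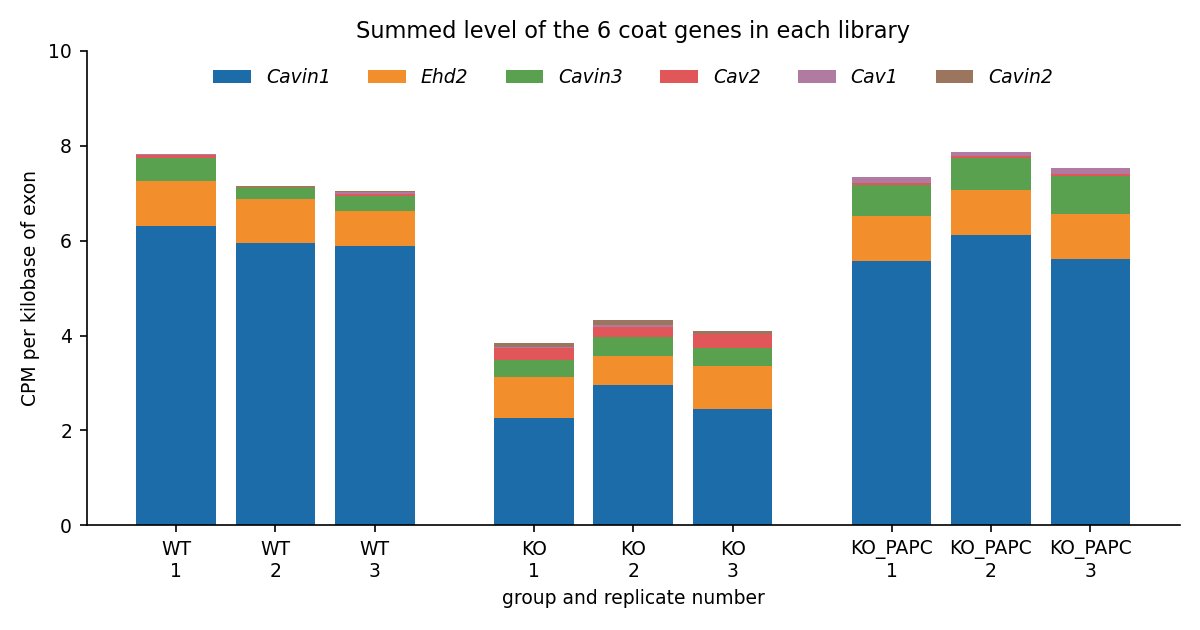
Summed level of the 6 coat genes in each of the 9 libraries, in CPM per kilobase of exon, stacked by gene. The 3 KO bars (3.84 to 4.33) are lower than the WT bars (7.04 to 7.82) and the KO_PAPC bars (7.34 to 7.87), and *Cavin1* is the largest share of every bar.

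The ratio of *Cavin3* to *Cavin1* per kilobase was 7.73%, 4.36% and 5.55% in the WT libraries, 15.8%, 13.1% and 15.3% in KO, and 11.6%, 11.2% and 14.3% in KO_PAPC. WT lay below both other groups, which overlapped. The log2 ratio was higher by 1.36 in KO than in WT and by 1.1 in KO_PAPC than in WT, with an exact two-sided permutation p of 0.1 for each, the smallest that 3 against 3 libraries allow. KO_PAPC differed from KO by -0.26 (exact permutation p = 0.2). *Ehd2* relative to *Cavin1*, a ratio added after the data were seen, was 14.9%, 15.6% and 12.4% in WT, 38.1%, 21% and 37% in KO, and 16.8%, 15.5% and 17.1% in KO_PAPC. KO lay above both, by 1.12 on the log2 scale over WT and with -0.91 for KO_PAPC versus KO (exact permutation p = 0.1 for each), while KO_PAPC against WT gave 0.21 (exact permutation p = 0.2). Over these 6 comparisons the adjusted p could not reach 0.05. Ratios to *Cav1* are not given, since some of its libraries were at the floor.

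The genes around the caveolin pair were compared with it. Within 500 kb lie 5 other protein-coding genes, and all 5 were called in all 3 comparisons, where 73.8%, 81.8% and 70.6% of all tested genes were. In KO_PAPC versus WT the call of *St7* was lost in DESeq2 (adjusted p = 0.2083) and in edgeR without the filter (adjusted p = 0.06666), and the groups overlapped for *Tes*. *Met*, the hepatocyte growth factor receptor, had 231, 202 and 206 counts in WT, 395, 391 and 430 in KO, and 153, 109 and 122 in KO_PAPC, so it changed in the direction of *Cav2*, with log2 changes of 0.90 for KO against WT and -1.45 for KO_PAPC against KO. *Tes*, a focal adhesion protein, had the same signs, at 0.70 and -0.49. *St7* had the opposite ones, at -1.34 and 1.13, with means of 9.83 CPM (WT), 3.9 (KO) and 7.6 (KO_PAPC). *Tfec*, a transcription factor, fell in both (-1.34 and -2.83), and *Capza2*, an actin capping subunit, rose in both (0.09 and 0.31). The neighbours of *Cav1* and *Cav2* thus took both directions in each comparison.

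**Figure D4:**
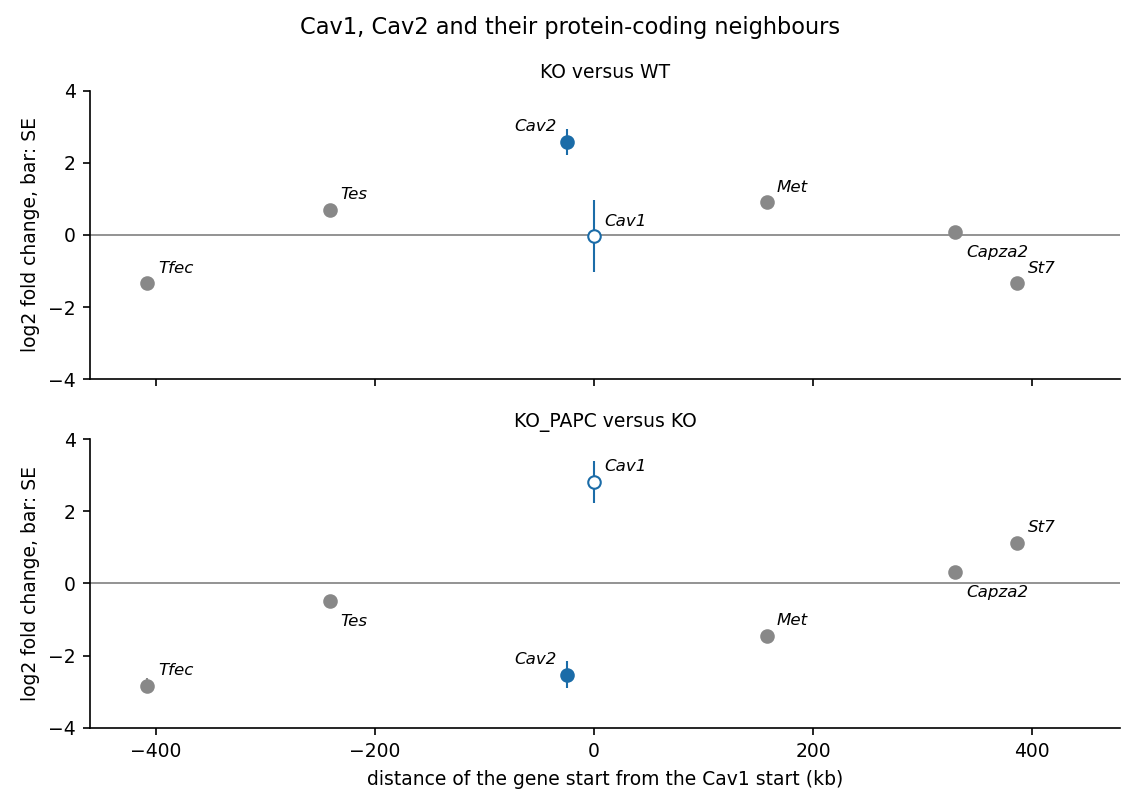
Log2 fold change of *Cav1*, *Cav2* (blue) and the 5 other protein-coding genes within 500 kb (grey), against the distance of each gene's start from that of *Cav1* in kilobases; bars are SE, and the open symbol marks *Cav1*, which was below the filter and is shown from the fit without it. *Cav2* and *Met* are above 0 in the upper panel (2.58 and 0.90) and below 0 in the lower (-2.52 and -1.45), with *Cav1* at -0.04 and 2.81.

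Among 13 other caveola proteins, 12 were tested. KO versus WT called 6 higher and 3 lower (median log2 difference 0.18, against -0.01 over all genes), KO_PAPC versus KO 5 and 5 (0.01, against -0.02) and KO_PAPC versus WT 5 and 4 (0.03, against -0.02). Scaled by library totals the counts were 4 and 6 in KO_PAPC versus KO (median -0.16) and 3 and 6 in KO_PAPC versus WT. Of all tested genes, 73.8% were called between KO and WT, 81.8% between KO_PAPC and KO, and 70.6% between KO_PAPC and WT. Calls on this list were about as common as that background. *Dnm2*, the dynamin that severs vesicle necks, had the signs of *Cav2*, at 0.60 for KO versus WT and -1.05 for KO_PAPC versus KO on the log2 scale, with means of 94.8 CPM (WT), 144 (KO) and 62 (KO_PAPC). *Ehd1*, an endosomal relative of *Ehd2*, had the same signs (0.39 and -0.79). *Src*, the kinase that phosphorylates CAV1, had the signs of *Cavin1*, at -0.74 and 0.96. The muscle caveolin *Cav3* was at the floor in every library (0 to 2 counts), and the muscle cavin *Cavin4*, with means of 4.94, 5.25 and 4.8 CPM, was called in no comparison (edgeR adjusted p = 0.4236, 0.7587 and 0.3021).

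Markers of the cell types richest in caveolae moved with some of these results, and their part in them was not tested. Over all tested genes, 36.8% were called higher and 37.1% lower in KO versus WT. The shares were 39.6% and 42.2% in KO_PAPC versus KO, and 34.2% and 36.4% in KO_PAPC versus WT. Of 7 smooth muscle markers, 6 were tested between KO and WT (2 higher, 3 lower in KO), 6 between KO_PAPC and KO (3 higher, 3 lower with PA/PC) and 5 between KO_PAPC and WT (3 higher, 0 lower, or 3 and 1 with library totals). Their summed level was 42.6 to 48.2 CPM in WT, 46.6 to 47.3 in KO and, with PA/PC, 58.9 to 64.1. *Smtn* made up most of it, at means of 39, 39.9 and 32.5 CPM. The defining factor *Myocd* was at the floor in KO_PAPC and near it in WT (4, 1 and 3 counts) and KO (2, 5 and 3). *Acta2*, smooth muscle actin, had 35, 42 and 51 counts in WT, 12, 15 and 12 in KO, and 372, 409 and 396 in KO_PAPC, so KO_PAPC was the highest group, as for *Cav1*. Its log2 difference was -1.73 between KO and WT and 5.11 between KO_PAPC and KO. *Cnn1* (-0.61 and 2.68) and *Tagln* (-1.17 and 3.03), both actin-binding proteins, had the same signs. The rest of the list did not follow them. *Myh11*, smooth muscle myosin (1.85 and -2.11), and *Lmod1* (1.21 and -1.41) had the signs of *Cav2*, with KO_PAPC means of 0.265 and 0.976 CPM. *Myh11* passed the count filter through its KO libraries alone, so its signs describe these libraries only. *Smtn* gave 0.0343, not called, and -0.13. These 3 are named to show both directions, after their values were seen.

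Endothelial markers, like *Cav2* and *Cavin2*, were highest in KO. Of 8 genes, 7 were tested between KO and WT (6 higher, 0 lower in KO), 7 between KO_PAPC and KO (0 higher, 7 lower with PA/PC) and 6 between KO_PAPC and WT (0 higher, 5 lower). In the same order, the shares over all tested genes were 36.8% higher and 37.1% lower, 39.6% and 42.2%, and 34.2% and 36.4%. The endothelial markers summed to 103 to 109 CPM in WT, 176 to 180 in KO and, with PA/PC, 33 to 35.3. *Pecam1*, an adhesion protein that stem cells also express, made up most of it, at 0.78 between KO and WT and -2.21 between KO_PAPC and KO on the log2 scale. *Vwf* (0.91 and -2.79) and *Esam* (0.28 and -1.84) had the same signs, *Cdh5*, the defining cadherin, had means of 0.358, 0.516 and 0.0962 CPM, and *Emcn* was at 0 counts in all 9 libraries. Between KO_PAPC and KO, *Cdh5* passed the filter through its KO libraries alone, so it had to be lower there.

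**Figure D5:**
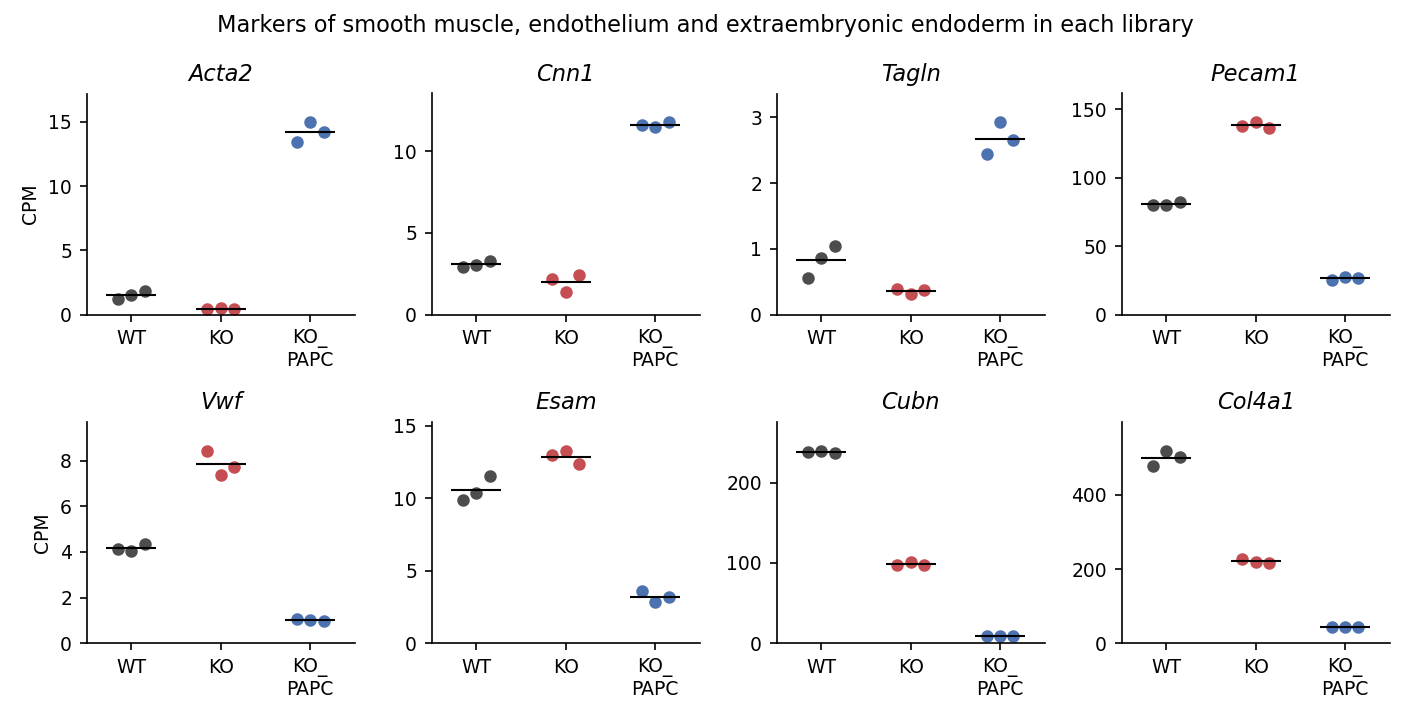
CPM (y axis, a separate scale in each panel) of markers of smooth muscle (*Acta2*, *Cnn1*, *Tagln*), endothelium (*Pecam1*, *Vwf*, *Esam*) and extraembryonic endoderm (*Cubn*, *Col4a1*) in the 3 WT, 3 KO and 3 KO_PAPC libraries; points are libraries and lines are group means. KO_PAPC is the highest group for these 3 smooth muscle genes (*Acta2* mean 14.2) and the lowest for the other 5 shown. The 4 smooth muscle markers not drawn are lowest in KO_PAPC.

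Adipocyte markers were scarce. Of 6 adipocyte markers, 4 were at the floor in WT, 2 in KO and 5 in KO_PAPC, and their sum did not exceed 1.82 CPM. Only *Cidec*, a lipid droplet protein, was tested, at 2.11 between KO and WT and -3.05 between KO_PAPC and KO on the log2 scale. It passed the count filter through its KO libraries alone, as *Cav2* did. A gene kept this way had to have these signs, so they describe these libraries only. Among 9 fibroblast and mesenchyme markers *Col3a1*, *Lum* and *Dcn* were at the floor in WT and KO. The sum was 57.3 to 60.2 CPM in WT, 29.6 to 31.4 in KO and, with PA/PC, 21.7 to 22.8. *Pdgfra*, which is also on the extraembryonic endoderm list, held 35.4 CPM of it in WT, 13.3 in KO and 2.34 in KO_PAPC. The fall of the sum is therefore not one of the whole list. Of the fibroblast and mesenchyme markers tested, 1 was higher and 4 lower in KO against WT, and 3 and 1 in KO_PAPC against KO. In KO_PAPC against WT they were 4 and 2 (3 and 3 with library totals). *Col3a1* and *Prrx1* passed the filter against KO through their KO_PAPC libraries alone, so they had to be higher there. The same held for *Col3a1* against WT. Striated muscle markers summed to 28.7 to 29.5, 25.1 to 27.4 and 18.8 to 20.8 CPM, with *Myod1* at the floor in WT and KO. *Des* made up most of each sum, at 23.4, 16 and 14.9 CPM, and the rest did not all follow it. *Myh6* was highest in KO, at 2.31, 5.65 and 3.09 CPM. In the same 3 comparisons 2 striated muscle markers were higher and 1 lower, 1 and 3, and 2 and 2. *Tnnt2* passed the filter through its KO libraries alone, and *Actc1* through its KO_PAPC libraries alone, so their directions were fixed too. The shares of all tested genes called in these comparisons were 36.8% higher and 37.1% lower, 39.6% and 42.2%, and 34.2% and 36.4%.

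Markers of the cells that make up early EBs also moved. All 10 extraembryonic endoderm markers were called lower in all 3 comparisons, and they summed to 1123 to 1188 CPM in WT, 568 to 571 in KO and, with PA/PC, 88.4 to 89.4, an order that none of the coat genes had. Of 8 stem cell markers, 7 were higher in KO against WT and 7 lower in KO_PAPC against KO, as *Cav2* was, and in KO_PAPC against WT 3 were higher and 5 lower (1 and 6 with library totals). All 5 epiblast markers, which summed to 384 to 399 CPM in KO against 513 to 520 in WT and 1064 to 1100 in KO_PAPC, were lower in KO against WT and higher in KO_PAPC against KO, as *Cavin1* was, but they were also all higher in KO_PAPC versus WT, where *Cavin1* was not called. Their part in the coat genes' values was not tested.

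The genes whose levels followed each coat gene most closely over the 9 libraries were named for the 3 that were above the floor in every library, by Pearson's r of log2(CPM + 0.5) over protein-coding genes. For *Cavin1* these were *Slc35a1* (r = 0.997), a transporter of CMP-sialic acid, *St8sia3* (0.995), a sialyltransferase, and *Kat8* (0.995), a histone acetyltransferase. Of the 12736 or 12737 genes compared, 1499 reached 0.9 with *Cavin1*, 196 with *Cavin3* and 0 with *Ehd2*. For *Cavin3* the closest were *Gins4* (0.972), *Zfp819* (0.965) and *Rps15a* (0.962), and for *Ehd2* they were *Wipf3* (0.829), *Osbpl9* (0.828) and *Mterf1a* (0.817). The 9 points share 3 groups, so such values describe group levels and carry no test.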

How the data were processed

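The authors mapped 51-cycle single-end reads of unstranded libraries to GRCm38 and deposited raw read counts per Ensembl gene, and reads of several places or genes were not counted. Per the labels, STAR 2.7.2b and featureCounts 1.6.5 were used for all 9 libraries; the study describes an earlier pipeline for WT versus KO. Symbols and exons came from GENCODE M21 (241 IDs unmatched). Genes were tested with edgeR 4.0.16 (R 4.3.3) by its quasi-likelihood test, with TMM size factors, filterByExpr and Benjamini-Hochberg adjustment over all tested genes, each comparison on its own 6 libraries, called at an adjusted p under 0.05. SE came from the F statistic. CPM are on library totals; count ratios have exact conditional intervals (95%).

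The members and lists were chosen with earlier results of these data known, so no p is independent support for them. Named genes were the members, all neighbours, the 3 most like each member, the 3 smallest adjusted p per list, and defining markers at the floor. The other smooth muscle markers, *Cdh5*, *Tnnt2* and *Actc1* were added after their values were seen. Several list genes near the floor passed the filter only through the group where they were high, so list counts of higher and lower only describe these libraries. A gene that this rule names is not reported here. The number of unused columns of per-sample values was 0. Replicate pairs differed by more than sampling noise. No batch is labelled. The study calls the 3 libraries of a group biological replicates; p-values measure only the spread between them.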

Additional observations from a re-analysis of the deposited data

How the results depend on the processing

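The 11 results for tested coat genes were recomputed under 14 alternatives each (DESeq2 1.42.0, RLE size factors, library totals, no filter, a mean of at least 10 counts, a joint fit, the replicate block, a minimum fold change of 2, and each library left out), 154 values in all. Of these, 141 kept direction and side of the threshold, 9 fell short of it and 4 changed sign, and the cause was not tested. The sign changes were *Cavin3* in KO versus WT without WT replicate 2 (-0.13) and without WT replicate 3 (-0.0127), *Ehd2* in KO versus WT without KO replicate 2 (0.0287) and *Cavin1* in KO_PAPC versus WT with library totals (-0.0705), all of them uncalled differences. Leaving out 1 library at a time gave -0.13 to 0.34 for *Cavin3* and -0.24 to 0.0287 for *Ehd2* in KO versus WT, and 0.18 to 0.36 for *Ehd2* in KO_PAPC versus WT. With a minimum fold change of 2, *Cavin3* (1.09 and 1.14) and *Ehd2* (0.42 and 0.29) were no longer called in KO_PAPC versus KO and versus WT, and called genes were 1587, 3554 and 1335 against 12813, 14047 and 11760. With library totals *Ehd2* gave 0.25 and 0.13, and DESeq2 gave 0.31 for KO_PAPC versus WT, all uncalled. Counts of called genes in the lists in either direction moved by over 1.5 times in 25 of 39 cases at a minimum fold change of 2. With library totals or 1 library left out these totals moved less. The split into higher and lower still shifted for several lists in KO_PAPC versus WT and in KO_PAPC versus KO, with the values for library totals beside them. Without KO_PAPC replicate 1 the endothelial markers had 1 higher and 6 lower there, and the smooth muscle markers had 3 and 1 when WT replicate 1 was left out.

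With the replicate number as a block, log2 changes in KO versus WT were 2.58 for *Cav2* and -1.24 for *Cavin1*, and no call of a coat gene changed. Deviations of same-numbered libraries correlated at -0.13 to 0.20. Differently numbered libraries were not correlated for reference, so whether the numbers pair libraries is not settled. Depth limits *Cav1*, *Cav2* and *Cavin2*, with 3 counts or fewer in some libraries. Where the interval of a count ratio includes equal levels, a difference inside it is not detectable.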

Other observations

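Other routes into the cell were read on the same scale. The 10 clathrin coat genes, which form the pits of classical endocytosis, summed to 452 CPM per kb in WT, 489 in KO and 422 in KO_PAPC, and the 6 caveola coat genes to 7.34, 4.09 and 7.58. KO versus WT called 5 clathrin coat genes higher and 3 lower. KO_PAPC versus KO called 3 and 7 (2 and 7 with library totals), and KO_PAPC versus WT 3 and 5 (1 and 7 with library totals). Of all tested genes 73.8%, 81.8% and 70.6% were called in these comparisons. *Cltc*, the heavy chain, had 21903, 20785 and 20623 counts in WT, 26599, 26850 and 28039 in KO, and 16802, 15526 and 16361 in KO_PAPC, so the KO libraries were the highest and the groups did not overlap. Its log2 changes were 0.34 between KO and WT and -0.53 between KO_PAPC and KO, while *Clta*, a light chain, had the opposite signs (-0.16 and 0.53). *Ap2a1*, of the AP2 adaptor, had the signs of *Cltc* (0.32 and -0.50).

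Of 10 flotillins and other raft scaffolds, 4 were higher and 5 lower in KO against WT, 2 and 5 in KO_PAPC against KO, and 2 and 6 (of 9 tested) in KO_PAPC against WT. Library totals made the counts 2 and 6 in KO_PAPC against KO and 0 and 7 in KO_PAPC against WT. Leaving out WT replicate 1 or KO_PAPC replicate 3 also made the latter 0 and 7, and leaving out WT replicate 2 made them 1 and 6. Without KO replicate 2 the counts in KO against WT were 2 and 5. *Flot2*, a raft scaffold that makes no caveolae, had the signs of *Cavin1* at -0.69 and 0.74, and KO_PAPC versus WT was not called (0.0529, edgeR adjusted p = 0.1984). *Thy1*, a GPI-anchored protein, had the signs of *Cav2* at 1.40 and -1.10, and the adaptor *Pag1* gave 0.18 and -1.24. Among 12 proteins found in caveolae, KO versus WT called 3 higher and 5 lower. KO_PAPC versus KO called 5 and 4 (5 and 5 with library totals), and KO_PAPC versus WT 6 and 3 (3 and 4 with library totals). Of these proteins 11, 11 and 10 were tested. The background for both lists is the 73.8%, 81.8% and 70.6% of all tested genes that were called. *Tgfbr1*, a TGF-beta receptor, was at -0.56 and 0.96, and the insulin receptor *Insr* at -0.18 and 0.73.

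The 14 targets of YAP/TEAD and SRF/MRTF respond to tension and the actin cytoskeleton. *Acta2*, *Cnn1* and *Tagln* among them are also smooth muscle markers, so the 2 lists are not separate observations. KO against WT had 3 higher and 9 lower of 13 tested (median log2 difference -0.61, against -0.01 over all genes). KO_PAPC against KO had 10 and 3 of 14 (0.92, against -0.02), or 10 and 4 with library totals. KO_PAPC versus WT had 9 and 3 of 13 (0.61, against -0.02), or 7 and 3 with library totals. Of all tested genes 73.8%, 81.8% and 70.6% were called. *Ajuba*, a LIM adaptor, had the signs of *Cavin1*, at -0.87 and 0.99, and *Vcl*, vinculin, had the opposite ones, at 1.38 and -1.21.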
